A study of Mus musculus with 15 samples.

Results

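The cytosolic ribosomal protein genes were followed across naive, antigen-primed and costimulated CD8+ T cells of the mouse. Members were the protein-coding genes of the gene table whose GENCODE M21 symbol names a protein of the large (Rpl, Rplp) or small (Rps, Rpsa, Fau) cytosolic subunit. This rule used names and no measured value, though it was set with earlier results of these data known. The rule found 84 of 55536 genes, of which 51 belong to the large and 33 to the small subunit. After a filter on low counts 82 members were tested among 17366 genes. The exceptions were Rpl3l and Rpl10l, paralogues known from striated muscle and testis. Rpl3l had 1 count in Naive 1, 3 counts in Ag 1 and 0 elsewhere, and Rpl10l had 0 to 2 counts except for 7 in Ag 3.

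All cells were CD8+ T cells of the OT-I line on C57BL/6J, which carry a transgenic T cell receptor for an ovalbumin peptide and, per the methods of the study, lack Rag1 or Rag2. Naive cells were purified from OT-I mice that had no transfer. Ag cells were transferred into wild-type C57BL/6J recipients that were given the peptide with a control rat IgG, and Ag+Costim cells into recipients given the peptide with agonist antibodies to OX40 and 41BB, costimulatory receptors of the TNF receptor family. Spleen and lymph node cells were collected at day 4 by the labels (the methods of the study give a slightly shorter time) and sorted, and each group held 5 libraries. The methods of the study give donors and recipients of both sexes and of a range of ages. Recipients kept their own lymphocytes, and 1 receptor clonotype and 1 time point limit the model.

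A ribosome holds 1 copy of nearly every ribosomal protein, so cells make these proteins in matched amounts, and their transcripts are among the most abundant in any cell. The transcripts start with a 5′ terminal oligopyrimidine (TOP) tract, through which the kinase complex mTORC1 and the RNA-binding protein Larp1 set how much of each is translated. T cells are known to enlarge their protein synthesis after antigen recognition, much of it through mTORC1 and Myc. A few members have paralogues that can take their place in the ribosome, among them Rps27 with Rps27l, Rpl22 with Rpl22l1 and Rpl7 with Rpl7l1. RNA counts say nothing of translation or of protein.

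Library totals ranged from 4865952 to 25280667 estimated counts, with a median of 14967616. Cd8a, Cd8b1, Cd3e, Cd3d and Trac together held 3207 to 6882 counts scaled to a common library total (CPM) in every library and Cd4 0 to 4.52 CPM, so the markers of the labelled cell type were present. Ag libraries were uneven. Ag 3 had the lowest total, 16.9% of its sequenced reads counted and 911 CPM of the 5 erythroid markers, against 3.1 to 124 CPM in the other libraries. Ag 2 and Ag 5 were made from an input amount of 1.4 and 1.8, in a unit the core does not give, against 7 to 10 elsewhere. Reads were counted for 51.9% to 53.6% of sequenced reads in Ag 2, Ag 5 and all Ag+Costim libraries and for 37.4% to 46.8% in Ag 1, Ag 4 and the Naive libraries. Lane 2 held all Ag libraries with Ag+Costim 1 to 3, and lane 3 held Ag+Costim 4, Ag+Costim 5 and the whole Naive group, so in Ag against Naive no lane holds both groups and a lane term rests on the Ag+Costim libraries alone. In bulk RNA, fewer cells of a kind and less RNA per cell cannot be told apart. The labels do not tie replicates to mice, so p-values measure the spread between these libraries.

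Ribosomal protein transcripts were among the most abundant of the library when read per length. In TPM (counts per kilobase of transcript, scaled to the same sum in each library), the median member had a mean level of 541 TPM over the 15 libraries. Of the 84 members, 77 had a mean level over 100 TPM and 63 stood among the 500 most abundant genes. Rpl32, a large subunit protein, led with a mean of 2433 TPM, rank 32 of all genes, and Rps14 of the small subunit was at 1611 TPM. Rps29 (1425 TPM) and Rps27 (1420 TPM) were neighbours in this order, and they differed by less than their spread between libraries. At the lower end stood Rpl7l1 with 79.6 TPM, Rpl21 with 63.2 TPM, Rpl39l with 1.59 TPM, Rpl10l with 0.211 TPM and Rpl3l with 0.0254 TPM. Levels also depend on how reads were shared with copies of a gene, described further on.

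**Figure D1:**
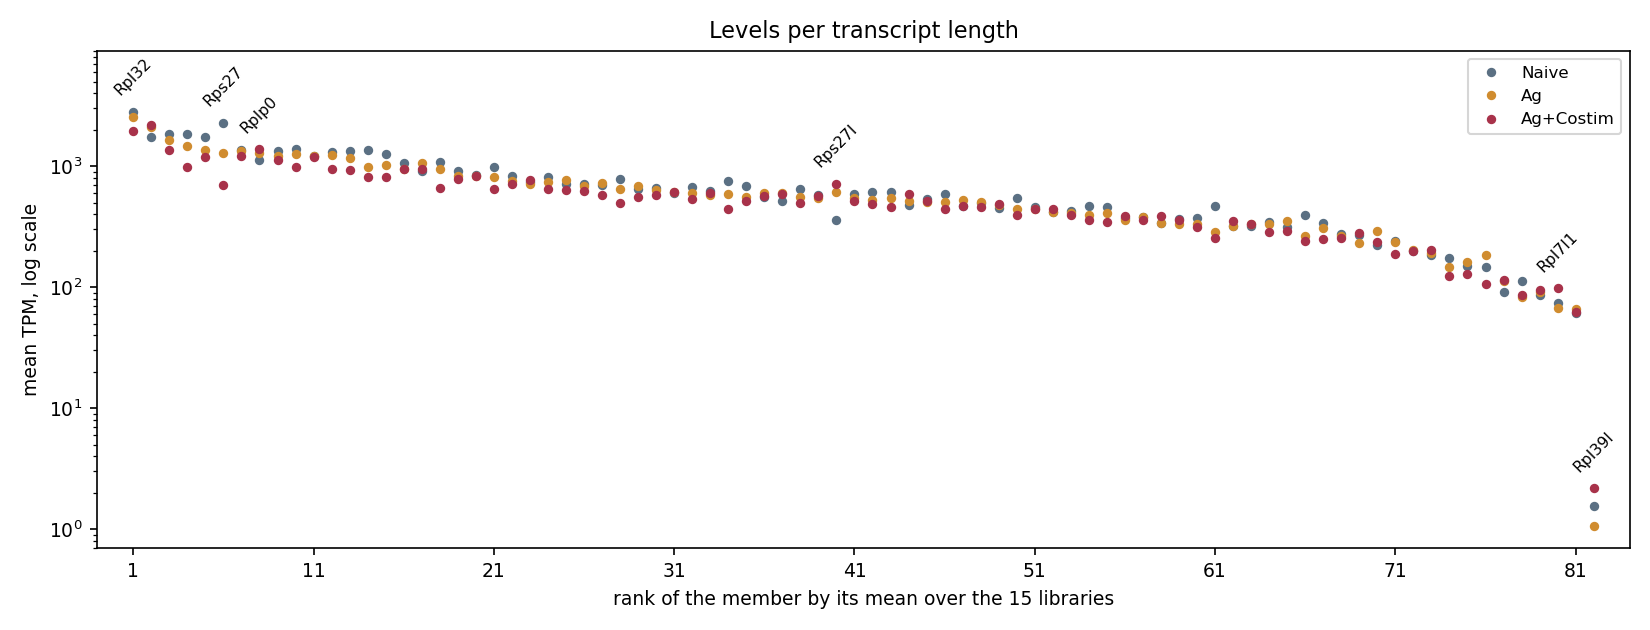
Mean level in TPM on a log axis of the 82 members with a mean of at least 1 TPM, by rank of the mean over all libraries, with 1 point per group (Naive, Ag, Ag+Costim; 5 libraries each). Levels go down steadily from Rpl32 at 2433 TPM around a median of 541 TPM, Rps27 is spread widely between groups, and Rpl39l at 1.59 TPM lies far below the rest.

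Within a group the members differed most between Ag libraries. The coefficient of variation of a member's CPM over 5 libraries had a median of 4.47% in Ag+Costim, 10.1% in Naive and 23.6% in Ag. It was highest in Ag for 82 of the 82 members tested and lowest in Ag+Costim for 80 of them. The Ag spread had a shared pattern, since 77 of 82 members were highest in Ag 5 and 61 were lowest in Ag 3. Within Ag+Costim 69 members were highest in Ag+Costim 4. These counts were not made over all genes, so the pattern is not shown to be particular to the members.

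The share of all counts that fell in the 84 members was smaller in Ag+Costim than in Naive. It was 2.98%, 3.12%, 2.73%, 2.76% and 2.49% in Naive 1 to 5, 3.13%, 2.84%, 2.03%, 2.71% and 3.35% in Ag 1 to 5, and 2.38%, 2.36%, 2.33%, 2.50% and 2.31% in Ag+Costim 1 to 5. The Ag libraries lay on both sides of all others, and only Ag+Costim 4 was above the lowest Naive library, Naive 5. The group means were 2.38% ± 0.073 in Ag+Costim, 2.82% ± 0.243 in Naive and 2.81% ± 0.503 in Ag (SD, n = 5 each). Ag+Costim was lower than Naive by a difference of -0.44 percentage points (exact two-sided permutation p = 0.0159, adjusted over 3 comparisons 0.0476). With 1 library left out at a time this adjusted p was 0.0952 in 8 of 10 settings and remained 0.0476 only without Naive 5 or without Ag+Costim 4. Tests of 4 against 5 libraries allow only coarse steps of p, and 0.0476 and 0.0952 are neighbouring steps here. Within lane 3 the difference was -0.411 (exact permutation, adjusted p = 0.19, in a test of 2 against 5 libraries that is too small to pass). Ag+Costim differed from Ag by -0.433 points (exact permutation, adjusted p = 0.143), which became -0.628 without Ag 3 (exact permutation, adjusted p = 0.0238). Ag differed from Naive by -0.00661 points (exact permutation, adjusted p = 0.984) and by -0.196 points without Ag 2 and Ag 5 (exact permutation, adjusted p = 0.5). As a share of TPM, Ag+Costim differed from Naive by -0.989 points (exact permutation, adjusted p = 0.0238), Ag+Costim from Ag by -0.558 points (exact permutation, adjusted p = 0.31) and Ag from Naive by -0.431 points (exact permutation, adjusted p = 0.421). The large subunit held 55.1% to 56.5% of the members' counts in every library.

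**Figure D2:**
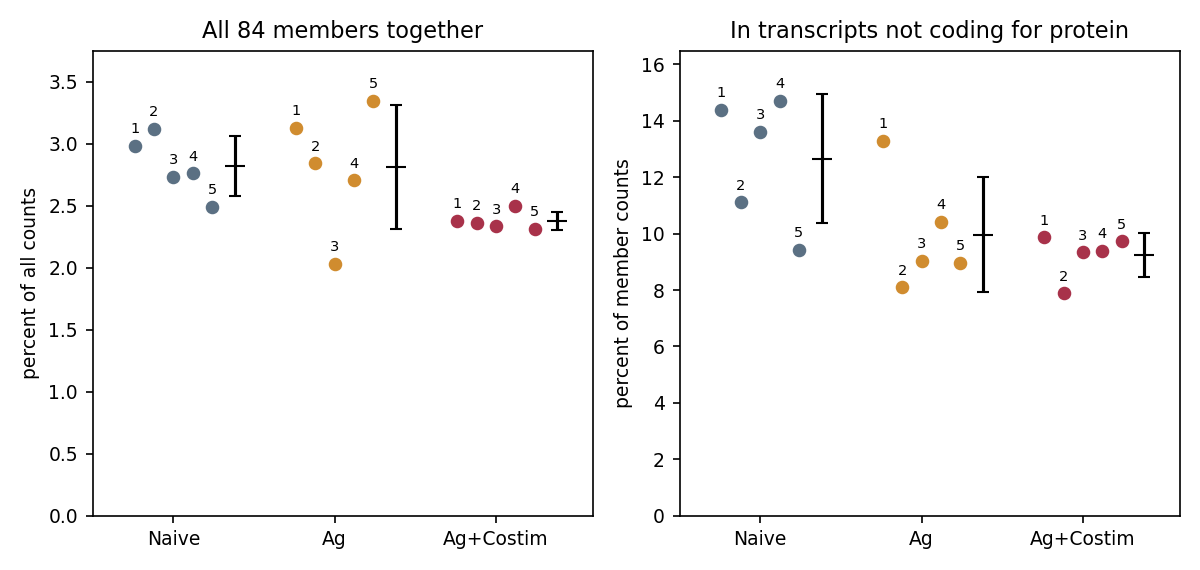
Percent of all counts in the 84 members, with 1 point per library and the mean and SD of each group (n = 5). Ag+Costim libraries lie close together between 2.31% and 2.50%, Naive libraries between 2.49% and 3.12%, and Ag libraries spread from 2.03% to 3.35%.

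Ag against Naive sets antigen-primed cells against naive cells. Antigen, transfer, host and lane all differ between these groups and cannot be told apart. In edgeR's quasi-likelihood test, 0 of 82 members passed a Benjamini-Hochberg false discovery rate (FDR) of 0.05, where 6.71% of all genes passed. At an unadjusted p under 0.05 there were 10 members, 9 higher and 1 lower in Ag, where 28.7% of all genes had such a p. DESeq2 called 1 member among 2736 genes and limma's voom 7 members among 3473 genes. With lane in the model neither a member nor any other gene was called. The groups' CPM did not overlap for 0 members, against 3.85% of all genes. The member log2 fold changes ran from -0.62 to 1.04, with 63 above and 19 below 0 and a median of 0.09, close to the 0.08 of all genes. Among genes of at least 5 CPM, fold changes of the non-members moved with transcript length (Spearman rho -0.423). Over 81 members rho was -0.00207. Non-members of the members' length were higher. Under 600 bases the median of the non-members was 0.27 against 0.08 over 28 members, and from 600 to under 1200 bases it was 0.36 against 0.13 over 39 members. The lowest FDR was that of Rpsa, the laminin-binding small subunit protein, at 0.35 (SE 0.12, edgeR FDR 0.084) on the log2 scale. Rpsa also was the gene that DESeq2 called. The extremes were the paralogues Rps27 (-0.62) and Rps27l (1.04), described below. Other members at the upper end were Rpl29 at 0.48, the stalk protein Rplp0 at 0.40, Rpl24 at 0.39 and Rpl41 at 0.39. At the lower end were Rpl12 at -0.29, Rps19 at -0.25, Rps24 at -0.16, Rps29 at -0.14 and Rpl13 at -0.13. Calls appeared without Naive 5 (Rpsa, Rps27 and Rps27l), without Ag 3 (Rpsa, Rpl22 and Rpl41) and without Ag 1 (Rps27). These were 3.66%, 3.66% and 1.22% of the members, where 21.5%, 6.99% and 10.4% of all genes were called.

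Costimulation beyond antigen is the comparison of Ag+Costim with Ag. Again 0 of 82 members passed the edgeR FDR of 0.05, with 0.0346% of all genes passing, 6 genes in all. At an unadjusted p under 0.05 there were 25 members, 1 higher and 24 lower, where 26.8% of all genes had such a p. DESeq2 called 8 members, all lower, among 2533 genes, and voom called 45 members, 18 higher and 27 lower, among 9969 genes or 57.4% of those tested. The median log2 fold change was -0.18 over the members and -0.10 over all genes, and 68 members lay below and 14 above 0. By length the medians were -0.27 over the members and -0.10 over non-members under 600 bases, and -0.17 and 0.03 from 600 to under 1200 bases. CPM did not overlap for 2 members, Rps27 and Rpl37a, both lower in Ag+Costim, against 6.33% of all genes. Both had an edgeR FDR of 0.0807, Rps27 at -0.90 on the log2 scale (SE 0.23) and Rpl37a at -0.54 (SE 0.13). Other members at the lower end were Rps15a at -0.45, Rpl32 at -0.43 and Rpl36 at -0.41. The highest with at least 5 CPM were Rpl7l1 at 0.45, Rpl5 at 0.19, Rps27l at 0.17, Rpl6 at 0.11, Rpl10 at 0.11 and Rps2 at 0.08.

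The result of Ag+Costim against Ag turned on which Ag libraries were included. Without Ag 3 there were 6 calls, all lower, among them Rpl22, Rpl32, Rpl37a, Rps15a and Rps27. Without Ag 5 there were 4, among them Rpl37a and Rps27 lower and Rpl7l1 higher, and without Ag 2 only Rps27, while 0.656%, 19.7% and 14.8% of all genes were called in these 3 settings. Without both Ag 2 and Ag 5, the libraries of low input, 21 members were called, 20 of them higher and Rps27 lower, a share of 25.6%, whereas 50.5% of all genes were called. This last setting was chosen after the data were seen. The member median then was 0.18. Among the members then higher were Rpl7l1 at a log2 fold change of 1.02 (edgeR FDR 0.00083), Rpl5 at 0.72 (edgeR FDR 0.0012), Rps2 at 0.70 (edgeR FDR 0.000718) and Rpl22l1 at 0.68 (edgeR FDR 0.000687). Rpl5 is a 5S ribonucleoprotein member, and Rps2 lies near the mRNA entry of the small subunit. In CPM, Rps2 was at 203, 329, 216, 180 and 420 in Ag 1 to 5 and at 284, 277, 281, 297 and 285 in Ag+Costim 1 to 5. Ag 2 and Ag 5 thus were above and Ag 1, Ag 3 and Ag 4 below every Ag+Costim library. Cd79a and Ms4a1, which mark B cells, each were at 27.7 to 100 CPM in Ag 1, Ag 3 and Ag 4 and at no more than 5.64 CPM in all other libraries. The sum of the 5 B cell markers, most of it Ighm, was 553.5 to 1422 CPM in Ag, 457 to 691 CPM in Ag+Costim and 565 to 1033 CPM in Naive. The part of these cells, of input and of the share of reads counted in this split was not tested.

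**Figure D3:**
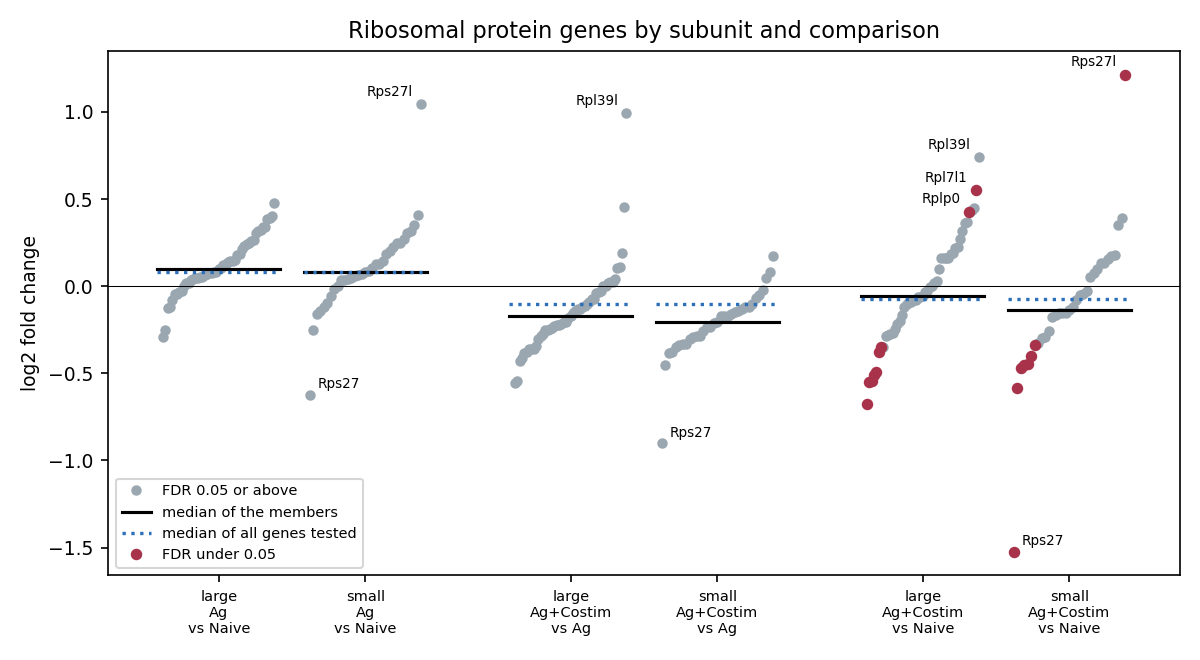
Log2 fold change of each member tested, ordered within subunit (49 large, 33 small) for each comparison, with red points for an edgeR FDR under 0.05, a black line for the median of the members and a dotted line for the median of all genes tested. Calls appear only in Ag+Costim against Naive, and most members lie within 0.5 of zero. Rps27 and Rps27l stand at opposite ends in both comparisons with Naive. In Ag+Costim against Ag, Rps27 is lowest, Rpl39l is highest at 0.99 and Rps27l is at 0.17.

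Costimulated cells were compared with naive cells as the full contrast of both stimuli. Transfer and host differ along with the stimuli and cannot be told apart from them. Of 82 members 17 passed the edgeR FDR of 0.05, a share of 20.7%, whereas 44.7% of all genes passed. Of these, 3 rose, where 21% of all genes rose, and 14 fell, where 23.6% of all genes fell. The median log2 fold change was -0.07 over the members and -0.08 over all genes. At an unadjusted p under 0.05 there were 28 members, 8 higher and 20 lower, where 55.7% of all genes had such a p. By length the medians were -0.14 over the members and 0.16 over non-members under 600 bases, and -0.04 and 0.40 from 600 to under 1200 bases. The ranges of CPM stood apart for 13 higher and 19 lower members, against 45% of all genes. The contrast shares the Naive libraries with the first and the Ag+Costim libraries with the second comparison, so the 3 sets of values are not independent.

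The split of calls depended on scaling and on the Ag libraries. With TMM factors from genes that are no members it was 6 higher and 6 lower, with library totals alone 1 higher and 31 lower, and with the sum of the members as the library size 18 higher and 16 lower. Of all genes 45.5% were called with the first and 46.7% with the second of these scalings. Without Ag 2 and Ag 5, which enter this contrast only through scaling, filter and the shared estimate of the spread, the split turned to 21 higher and 4 lower, with 56.4% of all genes called. Without Ag 2 alone it was 8 higher and 4 lower, and within lane 3 it was 7 higher and 3 lower, where 46.9% and 34.7% of all genes were called. Library totals moved the median of all genes to -0.23. Relative to the member sum 39.2% of all genes were called. All 17 called members kept their direction in each of the 27 alternatives, but only Rps27 kept its call in all of them. With lane in the model Rps27 alone of the members was called, and 5.43% of all genes. Within lane 3 (2 Ag+Costim against 5 Naive libraries) all 17 had the same direction and 6 of them passed. Without Ag+Costim 4 only Rps27 and Rps27l were called, and 29.6% of all genes. Without Naive 1 there were 6 calls (21.9% of all genes), and without Naive 4 or Ag+Costim 5 there were 7 (21.6% and 28.6%). Without Ag+Costim 1, Ag+Costim 2 or Naive 2 there were 8 (31.3%, 30.8% and 35.9%), and without Naive 3 or Ag+Costim 3 there were 9 (27.9% and 32.2%). Without Ag 5 there were 27, with 51.1% of all genes called. In the main fit 44.7% of all genes were called.

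Of the small subunit, 7 members fell and Rps27l rose. Rps27 fell most, and it is described with its paralogue below. Rps19, needed for maturation of the small subunit RNA and mutated in Diamond-Blackfan anaemia, was at 589, 607, 600, 545 and 412 CPM in Naive 1 to 5 and at 368, 364, 369, 372 and 365 CPM in Ag+Costim 1 to 5. Every Ag+Costim library was below every Naive library, and the log2 fold change was -0.58 (SE 0.14, edgeR FDR 0.0095). The Ag libraries, at 486, 457, 338, 432 and 597 CPM, covered the range of both. The call was lost with no filter on low counts, with lane in the model, within lane 3 and without Ag+Costim 4. Rps15a fell by 0.47 on the log2 scale, Rps24, another Diamond-Blackfan gene, by 0.45, Rps28 by 0.44, Rps29 by 0.40 and Rps20 by 0.34, with edgeR FDR values from 0.0245 to 0.0483. For each of these 5, CPM did not overlap between Naive and Ag+Costim, and each lost its call in more than 10 of the 27 alternatives.

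Of the large subunit, 7 members fell, 6 of which are named here. Rpl37a, a zinc-binding protein of the large subunit, was at 407, 429, 359, 355 and 313 CPM in Naive 1 to 5, at 446, 375, 266, 382 and 393 CPM in Ag 1 to 5 and at 257, 257, 250, 264 and 248 CPM in Ag+Costim 1 to 5. All Ag+Costim libraries were below all others, and against Naive the log2 fold change was -0.55 (SE 0.13, edgeR FDR 0.0085), a call kept in 23 of 27 alternatives. Rpl12, at the base of the stalk, fell by 0.55, Rpl13 by 0.51, Rpl36 by 0.49, Rpl32 by 0.38 and Rpl9 by 0.35 on the log2 scale, with edgeR FDR values from 0.0131 to 0.0409. Rpl12 was the only one of the 17 whose CPM overlapped between the groups.

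The members that rose in the large subunit were Rplp0 and Rpl7l1. Rplp0, which anchors the stalk that recruits elongation factors, was at 900, 1035, 870, 814 and 1131 CPM in Naive 1 to 5, at 1049, 1368, 1068, 980 and 1819 CPM in Ag 1 to 5 and at 1245, 1252, 1171, 1467 and 1253 CPM in Ag+Costim 1 to 5. All Ag+Costim libraries were above all Naive libraries, with Ag 5 above both. The log2 fold change was 0.43 (SE 0.16, edgeR FDR 0.0469), a call kept in 14 of 27 alternatives. Its partners in the stalk did not pass, Rplp1 at -0.35 (edgeR FDR 0.0579) and Rplp2 at -0.08. Rpl7l1 was at 92.9, 131, 134, 103 and 127 CPM in Naive 1 to 5 and at 159, 164, 158, 204 and 176 CPM in Ag+Costim 1 to 5. The groups did not overlap, and the log2 fold change was 0.55 (SE 0.21, edgeR FDR 0.0427), kept in 15 of 27 alternatives.

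Members with known further roles mostly did not pass in Ag+Costim against Naive. Rpl5 and Rpl11, which with 5S RNA can bind Mdm2, were at log2 fold changes of 0.23 and 0.03. Rps6, the substrate of S6 kinase, was at -0.04, Rps3, which also acts in DNA repair, at -0.17, and Rpsa at 0.05. Rps27a and Fau, made as fusions with ubiquitin and with a ubiquitin-like protein, were at 0.13 and -0.15. Rpl10, fitted last into the large subunit, was at 0.45 (edgeR FDR 0.0658) and Rpl29 at 0.44 (edgeR FDR 0.0866). The X-linked Rps4x was at 0.08, and Rpl3, at the peptidyl transferase centre, at 0.00.

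Rps27 and its paralogue Rps27l went opposite ways, and their coding sequences are shown because reads of 50 bases, the length the labels give, must tell them apart. Rps27 lies on the minus strand at chr3:90212522-90213651 and Rps27l on the plus strand at chr9:66946086-66949516 (GRCm38, gene spans of GENCODE M21). Both code for the zinc-finger protein eS27 of the small subunit, and Rps27l is known as a target of p53. The coding parts of Rps27-201 and Rps27l-201 without the stop codon follow, 252 bases each, with the 60 bases that differ in capitals.
Rps27: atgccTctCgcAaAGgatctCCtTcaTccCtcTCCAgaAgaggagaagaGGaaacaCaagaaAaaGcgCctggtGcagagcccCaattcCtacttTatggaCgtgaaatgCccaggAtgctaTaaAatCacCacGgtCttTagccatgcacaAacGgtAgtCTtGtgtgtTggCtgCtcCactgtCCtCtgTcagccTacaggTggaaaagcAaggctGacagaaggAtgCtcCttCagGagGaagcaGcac
Rps27l: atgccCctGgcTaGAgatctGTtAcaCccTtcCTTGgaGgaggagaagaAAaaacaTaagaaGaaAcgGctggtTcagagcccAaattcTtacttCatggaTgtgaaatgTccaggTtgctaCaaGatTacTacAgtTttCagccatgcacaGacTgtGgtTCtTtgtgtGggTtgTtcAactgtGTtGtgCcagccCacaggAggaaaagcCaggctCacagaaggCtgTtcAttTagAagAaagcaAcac
The 192 identical bases give an identity of 76.2%, and the longest run without a difference is 11 bases. Windows of 50 bases were cut from each gene's coding transcript with the most counts, Rps27-204 and Rps27l-201. Of these, 0 occur in an annotated transcript of the other gene. Of the windows of Rps27-204, 64.0% occur in some other annotated gene, such as a processed pseudogene, and of those of Rps27l-201 22.4%.

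The starts of both genes are shown because the members' promoters share short motifs. Windows run from 80 bases before to 20 bases from the annotated start (RefSeq, GRCm38.p6), Rps27 on the minus strand at chr3:90213629-90213728 and Rps27l on the plus strand at chr9:66946006-66946105, the first of its 2 starts. Capitals mark matches to CCGGAAG (the ETS family), AAGATGGC (YY1), GGGCGG (Sp1) or CTTTCC (a C followed by pyrimidines, as in TOP starts).
Rps27 start: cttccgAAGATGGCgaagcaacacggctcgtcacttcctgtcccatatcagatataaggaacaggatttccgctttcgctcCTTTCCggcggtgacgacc
Rps27l start: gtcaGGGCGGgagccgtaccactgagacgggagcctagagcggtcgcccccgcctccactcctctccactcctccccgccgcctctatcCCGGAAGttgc
The Rps27 window held AAGATGGC and CTTTCC, and the Rps27l window GGGCGG and CCGGAAG. Among the 300-base promoters (250 before to 50 after the start, both strands) of the 64 members with one, 40.6% held CCGGAAG, against 9.93% of 27025 genes. GGGCGG was in 62.5% against 38.2%, CTTTCC in 51.6% against 29.3% and AAGATGGC in 10.9% against 3.19%. No motif contains another, and a match is a description, not a bound site.

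Rps27 was at 700, 631, 609, 569 and 338 CPM in Naive 1 to 5, at 532, 270, 230, 473 and 344 CPM in Ag 1 to 5 and at 201, 206, 212, 183 and 189 CPM in Ag+Costim 1 to 5. The Ag+Costim libraries were below all others, Ag 2, Ag 3 and Ag 5 were between them and most Naive libraries, and Naive 5 was the lowest of its group. Ag+Costim fell against Naive by 1.52 on the log2 scale (SE 0.23, edgeR FDR 0.0017), with -1.61 within lane 3 (edgeR FDR 0.0232), -1.61 with lane in the model (edgeR FDR 0.0367) and a range from -1.69 to -1.35 over 27 alternatives, in all of which it passed. The step from Naive to Ag was -0.62 (SE 0.23, edgeR FDR 0.0996) and passed without Naive 5 or without Ag 1. The step from Ag to Ag+Costim was -0.90 (SE 0.23, edgeR FDR 0.0807), and it passed in DESeq2 at -0.92 (FDR 0.0069), in voom and without Ag 2, Ag 3 or Ag 5. Per length, Rps27 was at 696 ± 36.8 TPM in Ag+Costim, 1291 ± 611 TPM in Ag and 2274 ± 610 TPM in Naive (SD, n = 5 each). With the counts of its pseudogenes added, the log2 fold change of Ag+Costim against Naive was -1.46 (edgeR FDR 0.0032).

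Rps27l was at 78.0, 147, 81.1, 73.5 and 206 CPM in Naive 1 to 5, at 101, 359, 220, 98.1 and 428 CPM in Ag 1 to 5 and at 266, 259, 258, 307 and 268 CPM in Ag+Costim 1 to 5. The Ag+Costim libraries were above every Naive library, of which Naive 5 was the highest, while Ag 1 and Ag 4 lay within the Naive range and Ag 2 and Ag 5 above all Ag+Costim libraries. Ag+Costim rose against Naive by 1.21 on the log2 scale (SE 0.41, edgeR FDR 0.0287). The call was lost with lane in the model (1.30, edgeR FDR 0.0886) and without Naive 1, Naive 3, Naive 4 or Ag+Costim 5, and within lane 3 the value was 1.31 (edgeR FDR 0.0387). Ag against Naive was at 1.04 (SE 0.40, edgeR FDR 0.116), passed without Naive 5 and was at 0.14 without Ag 2 and Ag 5. Ag+Costim against Ag was at 0.17 (SE 0.40, edgeR FDR 0.802) and at 1.21 without those 2 libraries (edgeR FDR 0.0085), and it also passed in voom.

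Rps27l as a percent of the counts of both genes put the libraries in an order that total counts do not enter. It was 10.03%, 18.9%, 11.8%, 11.4% and 37.9% in Naive 1 to 5, 15.9%, 57.0%, 48.9%, 17.2% and 55.5% in Ag 1 to 5 and 56.9%, 55.7%, 54.9%, 62.7% and 58.7% in Ag+Costim 1 to 5. Ag 1 and Ag 4 lay among the Naive libraries and Ag 2, Ag 3 and Ag 5 near the Ag+Costim libraries. The means were 18.0% ± 11.6, 38.9% ± 20.6 and 57.8% ± 3.09 (SD, n = 5 each). Ag+Costim exceeded Naive by 39.8 percentage points (exact two-sided permutation p = 0.00794, the smallest that 5 against 5 allows, adjusted over 12 tests of 4 pairs 0.0238). Within lane 3 the difference was 42.7 points. Ag against Naive, at 20.9 points, and Ag+Costim against Ag, at 18.9 points, had adjusted exact permutation p-values of 0.0952 and 0.0833. The share of reads counted was 52.4% and 53.6% in Ag 2 and Ag 5, 51.9% to 52.7% in Ag+Costim, 37.4% and 44.3% in Ag 1 and Ag 4 and 16.9% in Ag 3, and its part in the order was not tested.

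**Figure D4:**
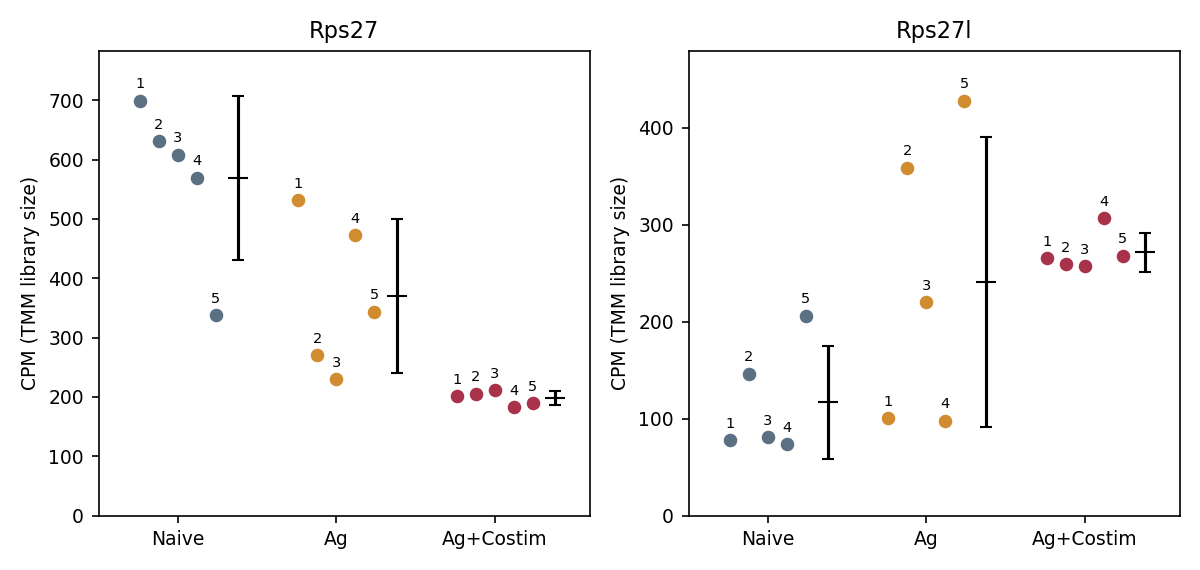
CPM of Rps27 and Rps27l in each library by group, with the mean and SD of each group (n = 5). Rps27 lies at 338 to 700 CPM in Naive and 183 to 212 CPM in Ag+Costim, and Rps27l lies at 73.5 to 206 CPM and 257.5 to 307 CPM. Ag libraries spread from 230 to 532 CPM of Rps27 and from 98.1 to 428 CPM of Rps27l. Some lie within the Naive range and none within the Ag+Costim range of either gene.

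In the other paralogue pairs, shares also differed between Ag+Costim and Naive, by less. Over their coding sequences Rpl22 and Rpl22l1 are 67.5% identical, Rpl7 and Rpl7l1 54.4%, and Rpl39 and Rpl39l 85.0%. By the same window check, no pair shares a 50-base window. Rpl7l1 was 18.5%, 21.1%, 24.6%, 21% and 22.0% of the pair in Naive 1 to 5, 14.1%, 22.3%, 25.2%, 15.4% and 20.9% in Ag 1 to 5, and 25.2%, 25.8%, 25.3%, 28.3% and 27.3% in Ag+Costim 1 to 5. Ag+Costim was above every Naive library and, with Ag 3 level with Ag+Costim 1 to the digits shown, at the top of the Ag range. The difference was 4.93 points against Naive and 6.79 points against Ag (exact permutation, adjusted p = 0.0238 for both). The parent Rpl7 itself was at a log2 fold change of 0.16 in Ag+Costim against Naive and did not pass.

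Rpl22 is needed by developing T cells, and its paralogue Rpl22l1 was 46.3%, 45.9%, 47.8%, 46.0% and 48.6% of the pair in Naive 1 to 5 and 53.0%, 53.4%, 49.9%, 53.8% and 52.0% in Ag+Costim 1 to 5. These groups did not overlap, and the difference was 5.51 points (exact permutation, adjusted p = 0.0238). Counted per kilobase of transcript it was -0.742 points (exact permutation, adjusted p = 0.865), so the direction held for counts and not per length. In Ag 1 to 5 the share was 35.3%, 51.0%, 49.6%, 35.4% and 51.8%, with Ag 1 and Ag 4 below all other libraries and Ag 2, Ag 3 and Ag 5 near Ag+Costim. Neither gene passed alone, Rpl22 at -0.10 and Rpl22l1 at 0.22 on the log2 scale in Ag+Costim against Naive. Rpl39l, a paralogue abundant in testis, made up 0.560% of its pair in Ag+Costim, 0.335% in Naive and 0.259% in Ag, on 0 to 21 counts a library. The Rpl39l differences had adjusted exact permutation p-values of 0.0381 against Naive and 0.0476 against Ag. With 1 library left out they no longer passed in 8 of 10 settings against Naive (exact permutation, highest adjusted p = 0.0762) and in 9 of 10 against Ag (exact permutation, highest adjusted p = 0.0952). The possible p-values of these tests also lie in coarse steps. The parent Rpl39 was at a log2 fold change of 0.02, and Rpl39l at 0.74 (edgeR FDR 0.30). Rpl3 with Rpl3l and Rpl10 with Rpl10l had too few counts to test, and Rps4l is no gene of that name in the annotation used.

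**Figure D5:**
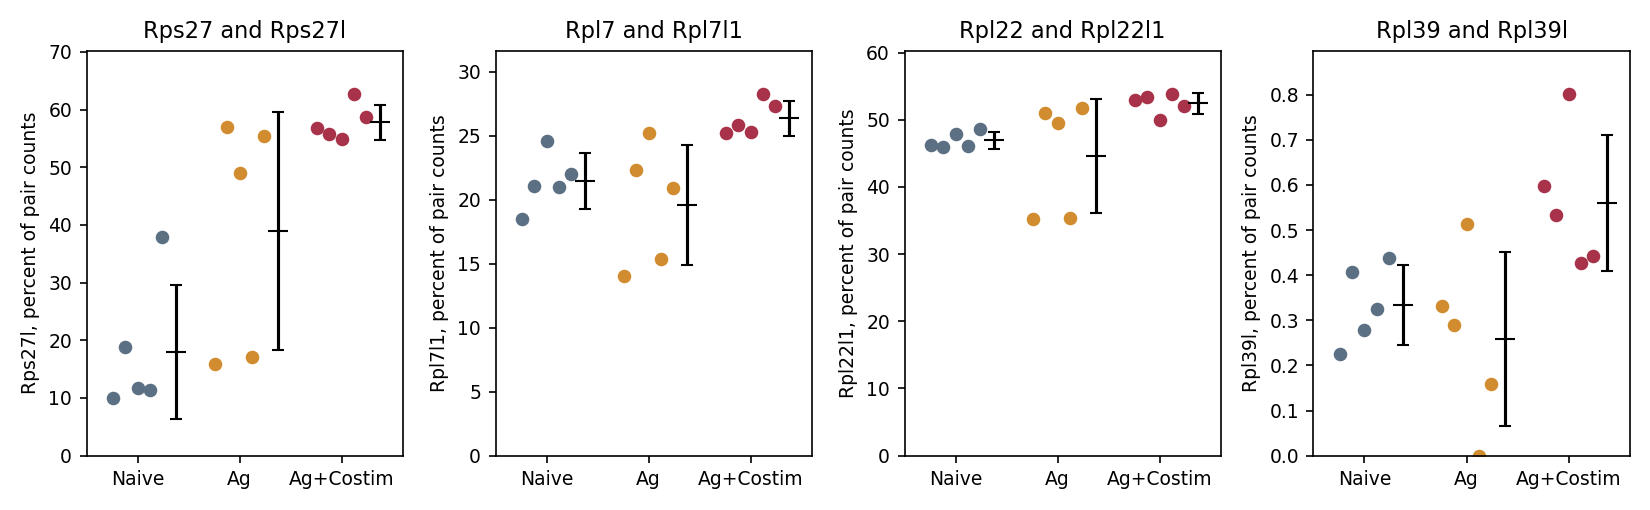
Percent of a pair's counts that fell in the paralogue, for the tested pairs, with 1 point per library and the mean and SD of each group (n = 5). The Rps27l share goes from a mean of 18.0% in Naive to 57.8% in Ag+Costim, those of Rpl7l1 and Rpl22l1 differ by 4.93 and 5.51 points, and in each of these 3 Ag 1 and Ag 4 lie low in their group.

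At the transcript level, part of the members' counts sat in transcripts that do not code, such as retained introns. These were 268 of the members' 507 annotated transcripts. They held 9.24% ± 0.790 of the members' counts in Ag+Costim, 9.96% ± 2.04 in Ag and 12.6% ± 2.29 in Naive (SD, n = 5 each). Ag+Costim differed from Naive by -3.41 percentage points (exact permutation, adjusted p = 0.0714), Ag from Naive by -2.69 points (exact permutation, adjusted p = 0.107) and Ag+Costim from Ag by -0.722 points (exact permutation, adjusted p = 0.579). In edgeR's test of transcript usage, 0 of 76 members were called in each comparison, where 41, 70 and 76 of 7501 genes were called. Members at an unadjusted p under 0.05 numbered 4 in Ag against Naive, 1 in Ag+Costim against Ag and 5 in Ag+Costim against Naive. The share of all 7501 genes at that p was not computed, so these counts say nothing particular about the members. No other tool was run for usage.

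Values are given for the members known for isoforms. Rps24-210, a coding transcript of Rps24, had a mean share of the gene's counts of 0.773 in Ag+Costim, 0.834 in Ag and 0.681 in Naive. In that order Rpl3-201, the coding transcript of Rpl3, had 0.592, 0.528 and 0.419, and the retained-intron transcript Rpl3-204 had 0.354, 0.401 and 0.505. Rpl22l1-201, the coding transcript listed first for Rpl22l1, had 0.720, 0.616 and 0.676. None of these passed, and their gene FDR in edgeR's usage test was at least 0.647. Rps24 was called only without the filter on low transcript counts and Rps10 only without Ag+Costim 3.

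Other genes of the pathway were read from 3 lists. Of 17 further TOP genes, 7 rose and 1 fell in Ag+Costim against Naive, where 21% of all genes rose and 23.6% fell. Their median log2 fold change was 0.26 against -0.08 over all genes. Those that rose were Nap1l1 at 1.37, Hnrnpa1 at 1.22, the elongation factor subunit Eef1d at 0.78, Btf3 and Naca, which cover nascent chains, both at 0.66, and the initiation factor subunits Eif3e at 0.48 and Eif3h at 0.35. Tpt1 was the one that fell, by 0.61. The elongation factors Eef1a1 and Eef2 were at -0.21 and 0.01 and did not pass. In Ag against Naive 1 of the 17 was called, Eif3h at 0.50 (edgeR FDR 0.0202), where 6.71% of all genes were called, and in Ag+Costim against Ag 0 were called by edgeR, with 2 at an unadjusted p under 0.05. Another list held 78 mitochondrial ribosomal proteins, which serve translation inside mitochondria. In Ag+Costim against Naive 50 of these rose and 0 fell, against the 21% and 23.6% of all genes, with a median of 0.57, led by Mrps6 and Mrpl27 at 1.20 each and Mrpl18 at 1.15. In Ag against Naive 5 of the 78 rose and 0 fell, where 6.71% of all genes were called in either direction, so the count was near that share. At an unadjusted p under 0.05 there were 33 of the 78, where 28.7% of all genes had such a p, and 73 lay above 0. The median there was 0.42. In Ag+Costim against Ag 0 were called by edgeR, with 2 at an unadjusted p under 0.05 and a median of 0.14. Other tools were not run on these lists.

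Among 13 regulators upstream of ribosomal protein synthesis, 3 fell in Ag+Costim against Naive and 0 rose, where 23.6% of all genes fell and 21% rose, so the count that fell was near that of genes at large. They were Tsc1, which restrains mTORC1, by 1.20, Rptor, a subunit of mTORC1, by 0.86, and Myc by 0.52. Myc had a mean of 89.8 CPM in Ag+Costim, 62.6 CPM in Ag and 128 CPM in Naive. Myc also fell in Ag against Naive, by 1.03 (edgeR FDR 0.0078), the only regulator called there, where 6.71% of all genes were called. In Ag+Costim against Ag 0 regulators were called by edgeR, with 3 at an unadjusted p under 0.05. Larp1 was at 0.55 in that comparison (edgeR FDR 0.0807), and Mtor at 0.21. The list medians were -0.27, -0.01 and -0.19 in Ag against Naive, Ag+Costim against Ag and Ag+Costim against Naive.

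Counts of single members carry an uncertainty from copies of their genes. The annotation holds 300 pseudogenes named for 61 members, and they received 21.7% to 22.9% of the counts of members and pseudogenes together in each library, with means of 21.8% in Ag+Costim, 22.2% in Ag and 22.0% in Naive. Windows of 50 bases were taken from each member's coding transcript with the most counts. Only 3 members, Rpl39l and Rpl3l among them, share no such window with another annotated gene. Of the 84 members, 45 share over 50% of their windows, and the median member shares 52.5%. Rpl35 shares most, 95.1%, and Rpl5 93.8%. With pseudogene counts added to each member, 11 members were called in Ag+Costim against Naive, 3 higher and 8 lower, in place of 17. Of all genes 45.2% were then called, in place of 44.7%.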

How the data were processed

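RNA of 15 libraries, 5 each of Naive, Ag and Ag+Costim, was reverse transcribed and amplified with SMART-Seq v4 and made into Nextera XT libraries read as 1 × 50 bases per the labels (the methods of the study give longer single-end reads). The authors aligned reads to mm10 with HISAT2 2.1.0, sorted them with SAMtools 1.9 and quantified annotated transcripts with StringTie 2.1.0 (submitters' processing notes). The deposited gene and transcript tables hold StringTie's estimated counts as whole numbers, not normalised. The conversion of coverage to counts and the release of the annotation were not given in the sources used here, and whether reads were assigned by strand was not stated. A table of the sequencing facility holds, per the file headers, each library's count of reads sequenced, percent of reads aligned, lane and input amount. A deposited FPKM table was not used.

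Of 81881 gene entries 55536 matched GENCODE M21 by identifier. Another 26248, named by a number alone, held 0.0818% of counts and were left out, as were 97 other entries with 0 counts. Tests used edgeR 4.0.16 in R 4.3.3 (filterByExpr, TMM, robust quasi-likelihood fit of all 15 libraries, 1 coefficient per group, Benjamini-Hochberg over 17366 genes, FDR under 0.05). The common biological coefficient of variation was 0.431. Usage used diffSpliceDGE with a share change of at least 0.1, and shares used exact two-sided permutation tests of 5 against 5. The members' CPM are per TMM-scaled library size and those of cell type markers per library total, and TPM were computed from transcript counts and annotated lengths. The scripts were tested on simulated data. Alternatives used DESeq2 1.42.0, limma 3.58.1, other scalings and filters, lane, replicate number and libraries left out. No pair of libraries in a group agreed within sampling noise (lowest chi-square per degree of freedom 5.62).

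The members, lists and pairs were chosen with earlier results of these data known. Named members were, per comparison, the 6 at either end of the log2 fold changes with at least 5 CPM in the higher group, together with fixed paralogues and members of known further roles. Rps28, Rpl9 and Rps20 were named because they passed the test. Protein sequences were not used here, and some members and markers are not reported here.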

Additional observations from a re-analysis of the deposited data

Results flagged for a closer look

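Among 123 series of 5 values per group (the CPM of 35 named members and 6 shares, in each group), 12 held a library whose gap to the nearest other exceeded 0.71 of the group's range, Dixon's 95% critical value for 5 values, which chance gives in about 1 of 20 series. In 11 of them Ag+Costim 4 was the highest of its group. It had 371 CPM of Rpl10 (other Ag+Costim libraries 300.5 to 319), 186.5 CPM of Rpl12 (159 to 167), 232 CPM of Rpl24 (207 to 213), 212 CPM of Rpl39 (182 to 188) and 431 CPM of Rpl5 (329 to 355.5). It had 376 CPM of Rpl6 (309.5 to 322), 518 CPM of Rpl7 (467 to 473), 1467 CPM of Rplp0 (1171 to 1253), 354.5 CPM of Rplp1 (329 to 333), 307 CPM of Rps27l (257.5 to 268) and 377 CPM of Rps4x (328.5 to 336). These series share that library's total and are not independent. In the last, Ag+Costim 2 had the lowest share of member counts in transcripts that do not code, 7.89% against 9.33% to 9.87%.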

How the results depend on the processing

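Counts of members called moved most. For Ag against Naive (0) they were 1 with DESeq2, 7 with voom and 0 to 3 with 1 library left out. For Ag+Costim against Ag (0) they were 8 with DESeq2, 45 with voom, 21 without Ag 2 and Ag 5 and 0 to 6 with 1 library left out. The shares of all genes called were 14.6%, 57.4%, 50.5% and 0% to 19.7%. For Ag+Costim against Naive (17) they were 55 with voom, 32 with library totals, 34 with the member sum, 2 with no filter, 39 with the 10 libraries alone, 1 with lane in the model, 10 within 1 lane, 11 with pseudogenes added, 25 (21 higher) without Ag 2 and Ag 5 and 2 to 27 with 1 library left out. Genes called in all moved too, from 7755 (44.7%) to 13638 (78.5%) with voom, 10205 (64.8%) with the 10 libraries alone and 943 (5.43%) with lane. They were 46.7% with library totals, 39.2% with the member sum, 8.49% with no filter and 34.7% within 1 lane. With pseudogenes added they were 45.2%, without Ag 2 and Ag 5 56.4%, and with 1 library left out 21.6% to 51.1%. Usage called 2 members in Ag against Naive and 1 in Ag+Costim against Naive with no filter, and 0 to 1 in both with 1 library left out. Among all genes, no filter gave 216 and 268 calls of 12321 tested, and leaving 1 library out gave 46 to 84 and 76 to 165. The cause of these moves was not tested.

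Replicate numbers were shared by the groups, but same-numbered libraries did not deviate together throughout (r from -0.318 to 0.529). In Ag against Naive, r was 0.529 for number 4 and 0.464 for number 5. Both were above the highest r with another number, 0.417 and 0.0238. Numbers 2 and 3 of that comparison were at -0.0268 and -0.318. The labels do not say whether the numbers pair the samples, and the main tests did not pair them. With the replicate block 16 members (6 higher, 10 lower) were called in Ag+Costim against Naive, with 45.1% of all genes called. With that block or within 1 lane the permutation test of a share cannot pass, and differences in percentage points were as follows. The member share in Ag+Costim against Naive was -0.44 with the block and -0.411 within 1 lane. The paralogue share in that comparison was 39.8 and 42.7 for Rps27l, 5.51 and 6.0 for Rpl22l1, 4.93 and 6.35 for Rpl7l1 and 0.226 and 0.101 for Rpl39l. In Ag+Costim against Ag it was 6.79 and 5.85 for Rpl7l1 and 0.301 and 0.385 for Rpl39l.

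Per kilobase, Rpl22l1 in Ag+Costim against Naive turned to -0.742 points, Rpl39l was 0.165 there and 0.257 against Ag, and Rpl7l1 against Ag was 3.88, none past the threshold. Without Ag 2 and Ag 5, Rpl7l1 against Ag was 8.16, at the smallest p that 3 against 5 libraries allow (exact permutation, adjusted 0.0612), and Rpl39l was 0.278 (exact permutation, adjusted p = 0.161). Without Gm10800, Gm10801 and Gm21738, the member share of Ag against Naive was 0.0133. For Ag+Costim against Ag, the log2 fold change of Rpl29 turned from -0.04 to 0.35 (voom) and 0.56 (without Ag 2 and Ag 5).

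With 1 library left out, the member share difference ran from -0.141 to 0.188 in Ag against Naive, from -0.628 to -0.299 in Ag+Costim against Ag and from -0.521 to -0.364 in Ag+Costim against Naive. In the same order of comparisons, the share in transcripts not coding ran from -3.52 to -2.17, from -1.19 to 0.113 and from -4.22 to -2.89. The share of Rpl22l1 ran from -4.12 to 0.00191 in Ag against Naive and from 5.51 to 9.64 in Ag+Costim against Ag. That of Rpl39l ran from 0.237 to 0.365 in Ag+Costim against Ag and from 0.165 to 0.259 in Ag+Costim against Naive, on 0 to 21 counts a library. Of the named members' log2 fold changes, 959 of the settings without a library left out gave the same direction and side of the threshold, 92 passed newly, 51 no longer passed, 120 changed sign without passing in either setting, and 2 were those of Rpl29.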
